A study of Homo sapiens with 6 samples.

Results

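The 10 genes described here encode transcription regulators of the integrated stress response: ATF4, ATF3, ATF5, DDIT3, CEBPB, CEBPG, NUPR1, TRIB3, JDP2 and NFIL3. They were picked out of the count table by symbol, and all 10 were found among the 25445 rows of the count table. The libraries came from MHCC-97H, an established line of liver cancer cells, grown in serum-containing medium. Cells were given 6j, a sophoridine derivative, at 10 μM for 16 h, or solvent for the same time (labelled as treatment none, called non-treated cells here). Each group held 3 libraries of oligo(dT)-selected RNA, numbered 1 to 3, from 1 cell line. Nothing in the labels states that the libraries of a group came from separate cultures, so p-values measure the spread between these libraries, which may be technical. The comparison asks which of these regulators had higher or lower transcript levels after 6j, and how they stood to each other.

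In the integrated stress response, kinases that sense different stresses phosphorylate the translation factor eIF2α, which lowers general protein synthesis while ATF4 is translated more. ATF4 belongs to the basic leucine zipper (bZIP) factors, which bind DNA only as pairs, and with C/EBP family partners it binds the C/EBP-ATF response element in genes for amino acid uptake, amino acid synthesis and tRNA charging. Many of its partners, rivals and inhibitors are themselves its target genes. Transcript counts measure neither the phosphorylation of eIF2α nor the protein of any factor.

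Levels are given as CPM (the count scaled to library size with TMM factors), and differences as log2 fold changes of 6j treated against non-treated cells. A gene was called a DEG when edgeR's quasi-likelihood test gave a Benjamini-Hochberg adjusted p under 0.05 over all 15957 rows tested together with a fold change over 1.5. All 10 regulators passed the filter on low counts. Of these, 7 were DEGs and all 7 were higher in 6j treated cells, against a background of 2.48% of rows called higher, 1.12% called lower and 3.60% called in either direction. The remaining 3, ATF5, CEBPB and JDP2, did not pass. All 3 libraries of 6j treated cells lay above all 3 of non-treated cells for 8 regulators, which was the case for 16.0% of all rows. The median log2 fold change was 1.23 over the 10 regulators and 0.0046 over all rows. With the replicate number as a block, which called 4.01% of rows higher, 7 regulators were called as well.

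The libraries held 31533403 to 38018349 counts each, and libraries of replicate 3 stood apart on the second principal component (25.6% of the variance). Without both of them, 7 of the 10 regulators were called. The labelled cell type was only partly seen in its markers. Of 15 liver cancer cell markers, 4 passed the filter on low counts (HNF4A, at only 19 to 53 counts per library, FOXA1, KRT8 and KRT18). The others had at most 9 counts in any library, with ALB and AFP at 0 in all non-treated libraries and TTR, FOXA2, GPC3 and EPCAM among those at 0 in every library. The summed level of 921 to 1125 CPM in non-treated and 722 to 838 CPM in 6j treated cells came mainly from the keratins KRT8 and KRT18. Of 12 markers of fibroblasts, endothelium and immune cells, COL1A2, PTPRC and CD3E were among those at 0 in every library, whereas CD68 stood at 39.8 to 70.5 CPM and COL3A1 at 25.9 to 47.8 CPM. The sum, mainly COL1A1, was 311 to 377 CPM in non-treated and 297 to 361 CPM in 6j treated cells. Mitochondrially encoded genes took 3.83% to 4.86% of the counts of non-treated libraries and 2.65% to 3.46% of those treated with 6j. The keratin and mitochondrial shares thus moved with the treatment, and their part in the results was not tested. In bulk samples, fewer cells of a type and less RNA per cell cannot be told apart.

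Sequence before the annotated starts of the regulators was read from RefSeq promoter windows (GRCh38.p14), in the 250 bases before each start. A gene can have several starts, so a window can lie inside the gene. The windows covered 9 regulators with 21 starts, and NUPR1 had no window. The core of the C/EBP-ATF response element, TGATGNAA, was found on the gene's own strand before ATF3, CEBPG and JDP2, and the AP-1 site TGANTCA before ATF5 and DDIT3. For ATF3, CEBPG, JDP2 and ATF5, not every start had the match. The matches of CEBPG, JDP2, ATF5 and DDIT3 lay inside the annotated span of the gene. These 5 stretches of 30 bases are shown because the first element is the one that ATF4 binds with C/EBP partners and the second is bound by other bZIP pairs. Capitals mark the match, and each is written 5′ to 3′ on the gene's strand.
ATF3, chr1:212565205-212565234, plus strand, match 191 bases before the start: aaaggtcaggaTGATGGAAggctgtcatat
CEBPG, chr19:33374060-33374089, plus strand, match 42 bases before the start: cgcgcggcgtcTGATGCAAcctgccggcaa
JDP2, chr14:75427992-75428021, plus strand, match 16 bases before the start: tatatagccggggcTGATGCAAcccgtccc
ATF5, chr19:49928707-49928736, plus strand, match 188 bases before the start: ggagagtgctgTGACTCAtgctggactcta
DDIT3, chr12:57520735-57520764, minus strand, match 241 bases before the start: gcgcgcgcaTGACTCAcccacctcctccgt

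Both strands were searched, and no match overlapped a match of another motif. Among all 35116 windows, 3.14% held the C/EBP-ATF core and 6.57% the AP-1 site, or 3.89% and 8.06% of the 27305 genes with a window. The shares of genes are not corrected for the number of windows per gene, and the 9 regulators had 21 windows. No window of the 9 regulators held the cAMP response element TGACGTCA (1.65% of all windows) or the ER stress response element, which is CCAAT and CCACG with 9 bases between them (0.074% of all windows). Of the genes with a C/EBP-ATF core in this window, ATF3 and CEBPG were called higher in 6j treated cells and JDP2 was not called, and of those with an AP-1 site, DDIT3 was called higher and ATF5 was not. ATF4, TRIB3, CEBPB and NFIL3 had none of these letters in their windows. A match is a description of the sequence and not a measured binding site.

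ATF4 (ENSG00000128272, chr22:39519695-39522685, coordinates of GENCODE 29, GRCh38) was the most abundant of the 10 and is the factor that gives the pathway its transcriptional output. It stood at 312.9, 348.9 and 289.7 CPM in the 3 non-treated libraries and at 693.0, 660.1 and 686.0 CPM in the 3 libraries of 6j treated cells. The groups did not overlap, and the treated libraries lay closer together than the non-treated ones. The mean rose from 317 ± 29.8 to 680 ± 17.4 CPM (SD, n = 3), a log2 fold change of 1.10 with a standard error of 0.092 (edgeR adjusted p = 0.000839), the rank of 12 among all rows by p-value. Counts of 10084 to 26629 per library stood behind these levels.

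**Figure D1:**
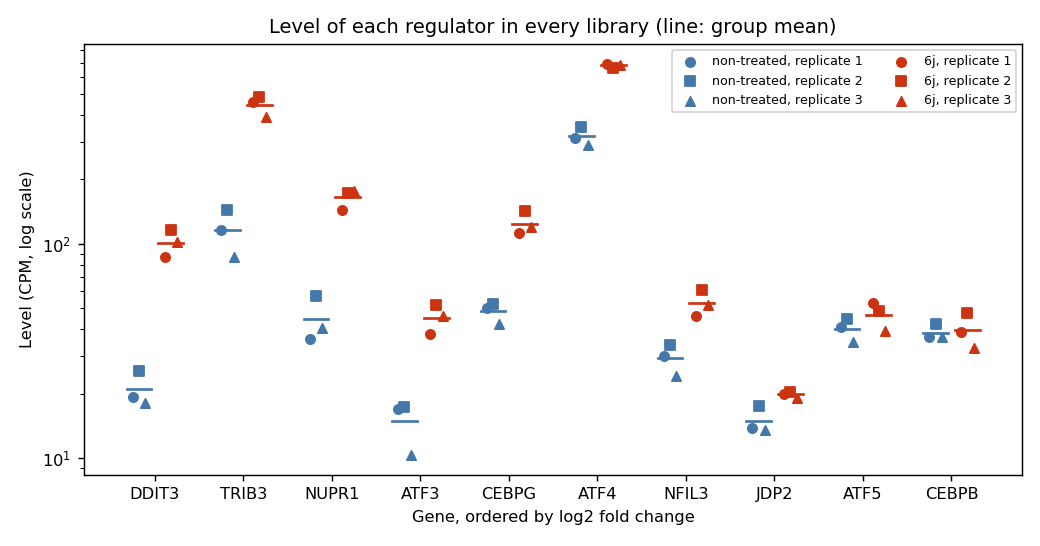
Level of each of the 10 regulators in every library, in CPM on a log axis, with non-treated and 6j treated cells side by side, a symbol for each library and a line for the mean of 3. ATF4 lies highest in both groups, the groups are apart for 8 regulators, and they overlap for ATF5 and CEBPB.

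DDIT3 (ENSG00000175197, chr12:57516588-57521737) encodes CHOP, a C/EBP relative that pairs with other C/EBP factors and is known for its part in cell death after long stress. It had the largest log2 fold change of the 10. Its level was 19.2, 25.6 and 18.1 CPM in non-treated cells and 86.5, 115.8 and 101.5 CPM after 6j. The lowest treated library was thus far above the highest non-treated one. From 21.0 ± 4.07 to 101 ± 14.7 CPM (SD, n = 3), the log2 fold change was 2.27 with a standard error of 0.16 (edgeR adjusted p = 0.000575), and DDIT3 took the rank of 5 among all rows. Exons of DDIT3 share 355 bases with MARS on the opposite strand. MARS, itself a tRNA synthetase of the pathway, rose by 0.86 on the log2 scale (edgeR adjusted p = 0.00758), and the sources used here do not state whether counting used strand, so reads from the shared bases cannot be told apart. MBD6, with 58 shared bases, had a log2 fold change of 0.45, and AC022506.1, with 105 shared bases on the same strand, was at 0 in every library.

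ATF3 (ENSG00000162772, chr1:212565334-212620777) is a bZIP factor that many stresses induce and that often represses its targets. It was among the least abundant of the regulators, at 17.0, 17.4 and 10.3 CPM in non-treated cells against 37.9, 51.9 and 45.9 CPM in treated cells. The groups were apart, but the difference between libraries of the same number ran from 1.15 for number 1 to 2.15 for number 3, where the non-treated library was low. Over the groups, 14.9 ± 3.97 became 45.2 ± 7.06 CPM (SD, n = 3), and the log2 fold change was 1.60 with a standard error of 0.21 (edgeR adjusted p = 0.00713). Tested formally against a 1.5-fold change with edgeR's glmTreat, ATF3 was not called (adjusted p = 0.0687).

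CEBPG (ENSG00000153879, chr19:33373330-33382686) encodes a short C/EBP protein that lacks an activation domain of its own and is a common partner of ATF4. Non-treated libraries had 50.03, 52.6 and 42.5 CPM and treated libraries 111.9, 141.7 and 119.3 CPM, with no overlap. The log2 fold change of 1.36 had a standard error of 0.12 (edgeR adjusted p = 0.000849). It was thus close to the change of ATF4 in size and in rank, at 14 and 12.

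CEBPB (ENSG00000172216, chr20:50190734-50192689), the C/EBP factor known from the acute-phase response of liver, was not called. It stood at 36.7, 42.2 and 36.8 CPM in non-treated cells and at 39.0, 47.4 and 32.6 CPM after 6j. The groups overlapped on both sides. The log2 fold change was 0.04 with a standard error of 0.14 (edgeR adjusted p = 0.888), and without 6j replicate 2 it was −0.10. Per kilobase of exon, the ratio of CEBPG to CEBPB was 0.512 to 0.605 in non-treated libraries and 1.27 to 1.62 in treated libraries, so that on this scale their order differed between the groups. In CPM, without the lengths, CEBPG lay above CEBPB in all 6 libraries. The ratio of DDIT3 to CEBPB by the same measure was 0.734 to 0.909 and then 3.32 to 4.66.

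ATF5 (ENSG00000169136, chr19:49928702-49933935) is the closest relative of ATF4, and its mRNA is under the same kind of translational control. Its level was 40.9, 44.5 and 35.0 CPM without and 52.9, 48.4 and 39.1 CPM with 6j, and the groups overlapped. The log2 fold change of 0.22 had a standard error of 0.13 (edgeR adjusted p = 0.335, and 0.0618 with the replicate block). Each treated library was above the non-treated library of its number, by 0.12 to 0.37 on the log2 scale. ATF5 shares 626 exonic bases with NUP62 on the opposite strand, which had a log2 fold change of −0.11 (edgeR adjusted p = 0.459). The per-kilobase ratio of ATF4 to ATF5 was 8.997 to 9.72 in non-treated and 15.4 to 20.6 in treated libraries.

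JDP2 (ENSG00000140044, chr14:75427716-75474111), a bZIP repressor closely related to ATF3, was the least abundant per kilobase in both groups. Its 13.9, 17.5 and 13.5 CPM in non-treated and 19.99, 20.4 and 19.2 CPM in treated cells did not overlap. The log2 fold change of 0.41 with a standard error of 0.13 was not called (edgeR adjusted p = 0.0815). With the replicate block the adjusted p was 0.0135 and with DESeq2 0.0492, but the change stayed under 1.5-fold. Per kilobase, ATF3 exceeded JDP2 by a ratio of 1.18 to 1.90 in non-treated and 2.92 to 3.93 in treated libraries.

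NFIL3 (ENSG00000165030, chr9:91409045-91423862), also called E4BP4, is a bZIP repressor best known for opposing the clock-controlled PAR factors. It was at 30.02, 33.8 and 24.2 CPM in non-treated cells and at 46.0, 61.3 and 52.0 CPM after 6j, without overlap. Its log2 fold change of 0.86 (standard error 0.15, edgeR adjusted p = 0.0119) was the smallest of the 7 called. This call was lost without non-treated replicate 1 (adjusted p = 0.0642) and without 6j replicate 2 (0.0646), and under glmTreat for a 1.5-fold change (0.852), all in edgeR.

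TRIB3 (ENSG00000101255, chr20:362835-397559) encodes a pseudokinase that binds ATF4 and lowers its activity, and NUPR1 (ENSG00000176046, chr16:28532708-28539174) a small stress-induced chromatin cofactor. TRIB3 stood at 116.1, 144.2 and 87.2 CPM in non-treated and at 457.5, 484.8 and 391.5 CPM in treated libraries. In both groups replicate 3 was the lowest, and the changes within numbers were alike, 1.75 to 2.17 on the log2 scale. The log2 fold change was 1.94 with a standard error of 0.18 (edgeR adjusted p = 0.00213), from 116 ± 28.5 to 445 ± 48.0 CPM (SD, n = 3). NUPR1 stood at 35.9, 56.8 and 40.7 CPM in non-treated and at 144.1, 173.5 and 176.6 CPM in treated libraries. Its log2 fold change was 1.89 with a standard error of 0.17 (edgeR adjusted p = 0.0020). Both inhibitor and cofactor had groups that were far apart. Both were called in all 6 fits that left out 1 library, as were ATF4, ATF3, DDIT3 and CEBPG.

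**Figure D2:**
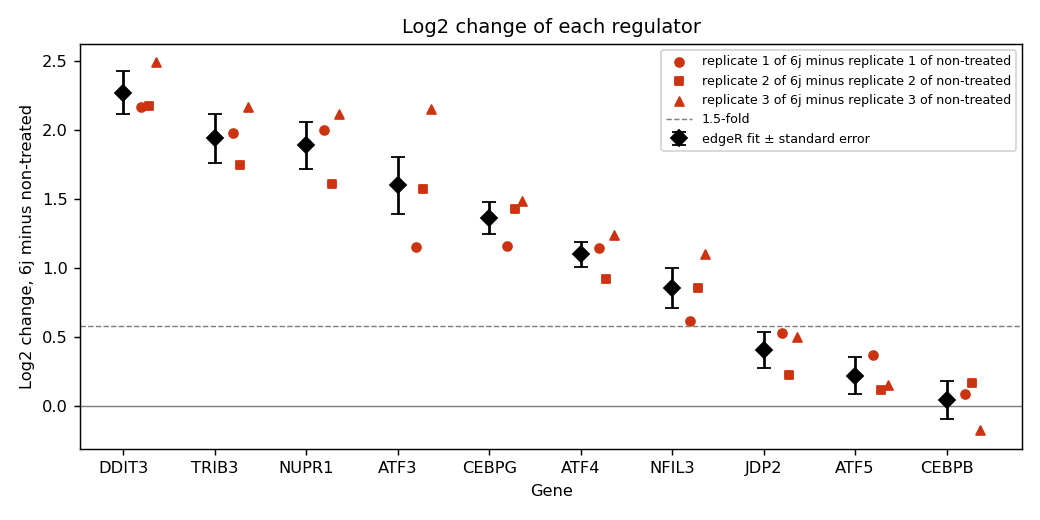
Log2 fold change of each regulator from edgeR (diamonds, bars for the standard error), with the change between libraries of the same number as red symbols and a dashed line at 1.5-fold. The 7 called regulators run from NFIL3 at 0.86 to DDIT3 at 2.27, and ATF5, CEBPB and JDP2 lie below the 1.5-fold line.

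Summed over the 10 regulators, the level was 672.6, 783.6 and 598.0 CPM in non-treated and 1688.6, 1805.3 and 1663.7 CPM in treated libraries, a ratio of means of 2.51. The composition of the sum differed too. ATF4 made up 46.5% ± 1.96 of it in non-treated and 39.6% ± 2.64 in treated libraries (SD, n = 3). TRIB3 went from 16.8% to 25.8%, NUPR1 from 6.47% to 9.59% and DDIT3 from 3.05% to 5.88%. The shares of ATF5 (5.87% and 2.72%) and CEBPB (5.66% and 2.30%) were lower in treated libraries although their levels overlapped. CEBPG kept a share of 7.09% and 7.21%. These shares are of counts, which longer transcripts raise.

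**Figure D3:**
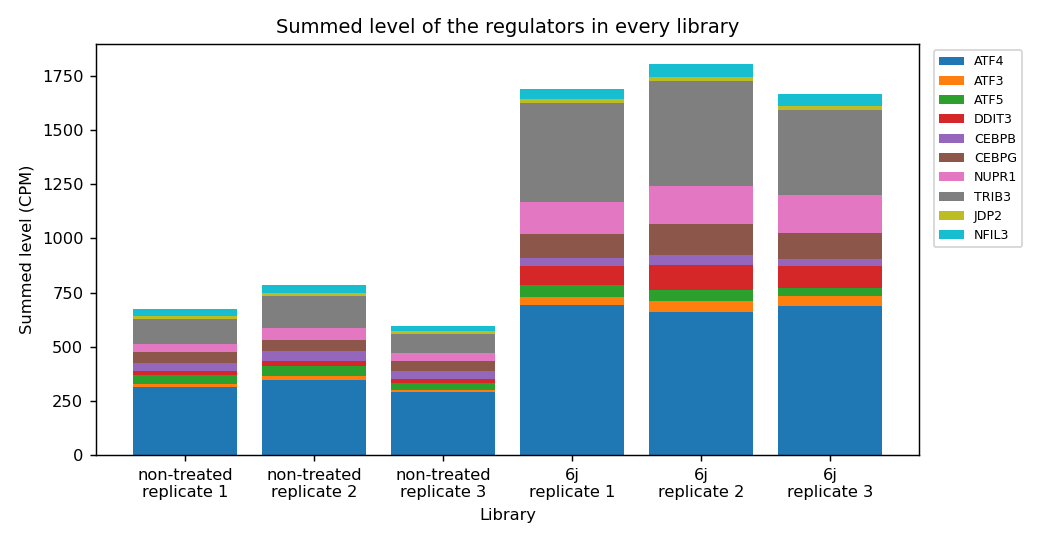
Summed CPM of the 10 regulators in each library as stacked bars from 0, with 1 color per gene. The 3 non-treated bars reach 598.0 to 783.6 CPM and the 3 treated bars 1663.7 to 1805.3 CPM, with ATF4 and TRIB3 as the largest segments.

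On the scale of CPM per kilobase of annotated exon, which divides levels by annotated length, ATF4 led in non-treated cells at 126, followed by TRIB3 at 33.7, CEBPB at 19.7, DDIT3 at 16.1, NFIL3 at 14.1, ATF5 at 13.6, CEBPG at 10.97, NUPR1 at 7.84, ATF3 at 3.69 and JDP2 at 2.40. From CEBPB down to NUPR1, every pair of neighbours overlapped between libraries, and so did ATF3 and JDP2. After 6j the order was ATF4 at 270, TRIB3 at 130, DDIT3 at 77.5, NUPR1 at 29.03, CEBPG at 28.2, NFIL3 at 25.5, CEBPB at 20.3, ATF5 at 15.8, ATF3 at 11.2 and JDP2 at 3.18. The leading ATF4, TRIB3 and DDIT3 and the trailing ATF3 and JDP2 were each clear of their neighbours. Between them, from NUPR1 down to ATF5, every pair of neighbours overlapped. CEBPB went from the third place to the seventh with hardly any change in its own level. The lengths are unions of all annotated exons, which lowers the values of genes with long or many isoforms. The order between genes therefore depends on these lengths. For NUPR1 the union is 5674 bases, most of its annotated span, so its place in the order is uncertain.

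The regulators were then compared with ATF4 within each library, as the log2 CPM of the gene minus that of ATF4. DDIT3 gained 1.17 on ATF4, TRIB3 0.86, NUPR1 0.81, ATF3 0.52 and CEBPG 0.26, and for these 5 all treated libraries lay above all non-treated ones. Such a gain beyond ATF4 was seen in 49 of the other 15956 rows, or 0.307%. JDP2, ATF5 and CEBPB lost against ATF4, with differences of −0.69, −0.89 and −1.08 and groups that did not overlap, which was the case for 85.6% of rows. NFIL3, at −0.25, overlapped. With 3 libraries against 3, the two-sided exact permutation test can give no p below 0.1, which these 8 reached (adjusted 0.1125 over 9 comparisons), and NFIL3 had an exact p of 0.2. Taken as pairs of the same number, all 9 differences kept 1 direction in the 3 pairs, NFIL3 with −0.53, −0.07 and −0.14, and the exact sign-flip p was 0.25, the smallest that 3 pairs allow. Within libraries of number 1 the gain of ATF3 was 0.0048 and that of CEBPG 0.014, against 0.65 and 0.51 in number 2, so their gains were uneven. Those of DDIT3 (1.02 to 1.25), TRIB3 (0.83 to 0.92) and NUPR1 (0.69 to 0.87) were alike in all 3 numbers.

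Over the 6 libraries, the rows most like ATF4 by the root-mean-square distance of centred log2 CPM, among 12211 Ensembl rows with a mean of at least 1 CPM, were UAP1L1 (distance 0.087), SHMT2 (0.096), a mitochondrial enzyme of serine and glycine metabolism, and GTPBP2 (0.10). Of the regulators, CEBPG came nearest, at the rank of 50, and NFIL3 at 67. Nearest to DDIT3 were ULBP1 (0.123), a ligand of the immune receptor NKG2D, FAM129A (0.123) and ECM2 (0.164), with NUPR1 and TRIB3 at the ranks of 5 and 6. By this distance CEBPG and NFIL3 thus lay close to ATF4, and NUPR1 and TRIB3 close to DDIT3. ATF3 was at 0.353 from ATF4 (rank of 591) and at 0.373 from DDIT3 (rank of 18), so ranks from ATF4 and from DDIT3 are not comparable. The distance is not scaled and also follows the size of the log2 fold change, so it does not show separate patterns. These distances are descriptions over libraries that share the treatment contrast.

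Of 43 known target genes of the response, 29 were called DEGs, all higher in 6j treated cells, none was called lower, and the median log2 fold change was 0.95. As a background, the same main fit gave a call of higher to 2.48% of the 15957 rows and of lower to 1.12%. INHBE, a subunit of the activin E hormone, went from 6.08 to 67.4 CPM (log2 fold change 3.47, edgeR adjusted p = 0.000358). ASNS, the asparagine synthetase, rose by 1.74 and SHMT2 by 1.04 on the log2 scale (edgeR adjusted p = 0.000575 for each). PHGDH, which opens the serine synthesis pathway, rose by 1.36 (edgeR adjusted p = 0.000839). Not all targets were called. The lowest was ALDH1L2, a mitochondrial folate enzyme, at 0.05 with a standard error of 0.46 (edgeR adjusted p = 0.963), on only 18 to 42 counts per library. NARS, a tRNA synthetase, was at 0.40 (edgeR adjusted p = 0.0166), under the fold threshold. With the replicate block, 32 of the targets were called, all higher, against 4.01% of all rows called higher.

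Upstream of ATF4, 16 genes were taken for eIF2α, its kinases, its phosphatase subunits, its exchange factor eIF2B and the kinase regulators GCN1, IMPACT, DELE1 and OMA1. Of these 16, 1 was called, against 3.60% of all rows called in either direction. In sign, 7 were higher and 9 lower, and the median was −0.13. The called gene was PPP1R15A, which encodes GADD34, the stress-induced subunit that directs the phosphatase to eIF2α and is also among the 43 targets. It went from 40.1 to 124 CPM (log2 fold change 1.63, edgeR adjusted p = 0.00213). The constitutive counterpart PPP1R15B was at 0.28 (edgeR adjusted p = 0.197). Among the kinases, EIF2AK3, which encodes the ER stress sensor PERK, had a log2 fold change of 0.54 (edgeR adjusted p = 0.0247), under the fold threshold. EIF2AK1, the heme-regulated kinase, was at 0.08, EIF2AK2, the double-stranded RNA sensor, at 0.04, and EIF2AK4, the amino acid sensor GCN2, at −0.20, with edgeR adjusted p of 0.555, 0.944 and 0.119. EIF2B3, a subunit of eIF2B, was at −0.58 (edgeR adjusted p = 0.0116), just short of the fold threshold, and GCN1, the GCN2 partner, at −0.29 (0.0611).

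Of 45 other bZIP factors and paralogs of TRIB3 and NUPR1, 39 were tested and 4 were called, against 3.60% of all rows called in either direction. Called higher were MAFF (log2 fold change 1.15, edgeR adjusted p = 0.0135), MAFG (0.70, 0.00623) and NFE2L1 (0.59, 0.00928), and JUNB was called lower (−0.65, 0.0121). NFE2L1 was not called with the replicate block, where its log2 fold change of 0.583 fell under the fold threshold. MAFF and MAFG are small MAF proteins, which pair with NFE2L factors. The median was 0.18, and 26 were higher and 13 lower. CEBPA (0.45, edgeR adjusted p = 0.281) and CEBPD (0.10, 0.672), the liver and acute-phase relatives of CEBPB and CEBPG, were not called. TRIB1 (0.24, 0.25) and TRIB2 (−0.09, 0.901), the paralogs of TRIB3, were not called in edgeR either. ATF6 and XBP1, the factors of the other ER stress branches, were at 0.49 and 0.53 with edgeR adjusted p of 0.0113 and 0.0132, under the fold threshold, as was JUND at 0.55 (0.0113). NFE2L2, the oxidative stress factor, was at 0.17 (edgeR adjusted p = 0.221) and FOS at 0.33 (0.575). JUN, an AP-1 subunit, was at 0.95 without a call (edgeR adjusted p = 0.0569). It was called with the replicate block (0.000246) and in DESeq2 (adjusted p = 0.00064). The lowest relatives, BATF2 at −1.56 and NFE2 at −0.82, had edgeR adjusted p of 0.461 and 0.0948, and NFE2 was called lower with the block.

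**Figure D4:**
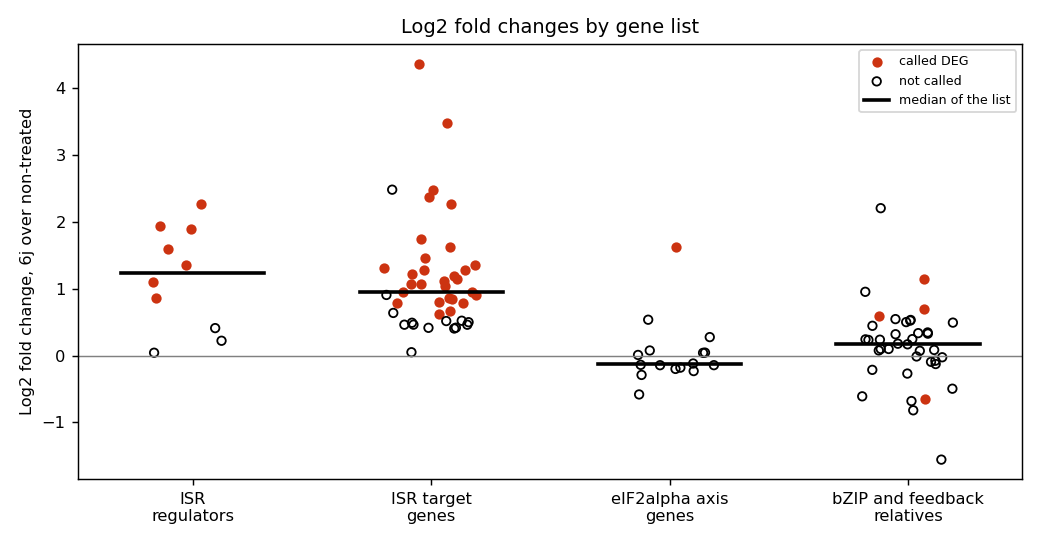
Log2 fold changes of the tested genes of the regulators, the 43 targets, the 16 genes around eIF2α and the 39 relatives, with points for genes, filled where called, and a line at each list's median. The medians are 1.23, 0.95, −0.13 and 0.18, against 0.0046 over all rows.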

How the data were processed

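RNA of 3 non-treated and 3 6j treated libraries was sequenced. Counts for every gene, without normalization, were what the authors deposited, as whole numbers that may be reads or rounded StringTie estimates. The submitters' processing notes name HISAT2, StringTie and GRCh38, without versions, and whether counting used strand is not given in the sources used here. All 6 columns were used (0 left out). The 25445 rows hold 19974 Ensembl genes, all found in GENCODE 29, and 5471 new genes of the authors' assembly.

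edgeR 4.0.16 (R 4.3.3, limma 3.58.1) applied filterByExpr (minimum count 10, total 15), TMM and a robust quasi-likelihood fit without covariates, with p-values adjusted over all 15957 rows tested. Log2 CPM used a prior count of 2. Differences from ATF4 were compared by exact permutation, and DESeq2 1.42.0 was an alternative. The methods were tested on simulated data. Counts of 360 to 26629 per regulator and library gave counting errors of 0.996% to 5.27%, and the coefficient of variation between replicates was 2.55% to 26.6%. Counting errors cover sampling of counts only.

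The regulators and the gene lists were chosen with earlier results of these data known. Besides the regulators, the genes named are, from each list, the 4 with the smallest adjusted p and the 2 with the lowest log2 fold change, the eIF2α kinases and PPP1R15A and PPP1R15B, the close relatives CEBPA, CEBPD, TRIB1, TRIB2, JUN, FOS, XBP1, ATF6 and NFE2L2, the 3 rows most like ATF4 or DDIT3, and genes that overlap a regulator. MAFF, JUNB, VLDLR, CTH, GDF15, FGF21, STC2, ADM2 and FOSB fall outside these rules and were chosen after their values were seen. Lists were described by counts and medians without a set test. Markers of liver cancer cells and of other cell types were a further 2 lists, of which some genes are not reported here.

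The groups share replicate numbers, whose meaning the labels do not give. Deviations from the group means correlated at 0.171, 0.18 and 0.312 between libraries of the same number and at −0.231 to 0.0795 otherwise. Deviations within a group sum to 0, so positive values for the same number lower the others, and these values do not settle whether the libraries were paired. The numbers were taken to pair the libraries in the replicate block and in the differences within numbers. The main fit, which gave the calls, did not use the pairing. No 2 libraries of the same group agreed within sampling noise.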

Additional observations from a re-analysis of the deposited data

How the results depend on the processing

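Of the 10 regulators, 7 were called under TMM, RLE and upper-quartile scaling, all filters on low counts, DESeq2, the replicate block, Ensembl rows only and without both libraries numbered 3, a setting chosen after seeing the data. Leaving out 1 library gave 6 or 7. With glmTreat, edgeR's test against a 1.5-fold change, 5 remained called, and ATF3 (log2 fold change 1.60, adjusted p = 0.0687) and NFIL3 (0.86, 0.852) were not. NFIL3 ranged from 0.73 to 0.97 when 1 library was left out. CEBPB ranged from −0.10 to 0.17, with −0.10 without 6j replicate 2 as the only reversal.

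The replicate block raised the DEGs over all rows from 574 to 1033 and left the count of regulators at 7. It gave 32 of 43 targets, adding VLDLR, GDF15 and CTH, and 6 of 39 relatives. glmTreat left 32 DEGs in all, 11 targets and 0 relatives. Of the 39 relatives, 17 had an unadjusted p under 0.05 in edgeR's quasi-likelihood test, as had 4175 of all 15957 rows. In glmTreat 4 of them had one, for which the share over all rows was not counted. DESeq2 called 6 relatives and 773 rows in all. Leaving out 1 library gave 186 DEGs (without non-treated replicate 1) to 772 (without 6j replicate 1), with 193 when 6j replicate 2 was dropped and 379 when non-treated replicate 3 was. It gave 1 to 3 genes around eIF2α (2 without non-treated replicate 2 and 3 without 6j replicate 1) and 1 to 7 relatives (1 without non-treated replicate 1, 2 without 6j replicate 2, 7 without 6j replicate 1). Upper-quartile scaling gave 2 genes around eIF2α. The cause of these differences was not tested, and a fit that leaves 1 library out also holds fewer libraries. No difference from ATF4 changed its direction under another prior count, the replicate block or without 1 library.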

Other observations

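Of the 43 targets, 4 genes for secreted factors, picked after their values were seen, are given here singly and not as a group. FGF21, the fasting and stress hormone of liver, had the highest of all 43 at 4.36 with a standard error of 0.73 (edgeR adjusted p = 0.0116), on 7, 4 and 0 counts in the non-treated libraries and 68, 129 and 52 counts in the treated ones, so that the size of this change rests on few counts. STC2, a stanniocalcin, went from 32.3 to 156 CPM and rose by 2.27 (edgeR adjusted p = 0.00994), and ADM2, an adrenomedullin relative, went from 6.11 to 31.6 CPM and rose by 2.37 (edgeR adjusted p = 0.00489). GDF15, a hormone that lowers appetite, had 18.3, 49.6 and 21.4 CPM in non-treated and 118.9, 235.2 and 143.4 CPM in treated libraries. Its log2 fold change of 2.48 with a standard error of 0.54 was not called in edgeR (adjusted p = 0.0617) and was called in DESeq2 (adjusted p = 0.00036). Replicate 2 was the highest library in both groups, and with the replicate block the adjusted p was 4.27e-06.

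The AP-1 subunit FOSB, also picked after its values were seen, had the highest log2 fold change of the 39 relatives, at 2.20 without a call (edgeR adjusted p = 0.0905). Its level was 0.929, 1.02 and 1.38 CPM in non-treated and 3.59, 1.53 and 10.2 CPM in treated libraries, so that the treated libraries were spread widely above the non-treated ones. With the replicate block it was called (adjusted p = 0.0156), as it was in DESeq2 (adjusted p = 0.00095).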
